A study of Mus musculus with 6 samples.

Results

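Eef1a2 encodes a tissue-restricted form of the translation elongation factor eEF1A, and it was present in mouse osteoclast precursors, low after RANKL and higher again when a leaf extract was given with RANKL. It is described here together with the genes of the factors it works with, namely its ubiquitous counterpart Eef1a1, the exchange factor subunits Eef1b2, Eef1d and Eef1g, the translocation factor Eef2 and the eEF2 kinase Eef2k. These 7 genes were taken by symbol from the 24940 genes of the expression table. The set was built around the rise of Eef1a2 with the extract, that is, 0.544 and 0.576 RPKM in the libraries with RANKL alone against 8.74 and 8.94 RPKM in those with RANKL and extract, and the other 6 genes were added as relatives and partners. RPKM is a level per length, the number of reads scaled to the length of the transcript and to the depth of the library. Genes were tested if they averaged 0.5 RPKM or more over the 6 libraries, and 11595 genes, including all 7 of these, did so. Eef1a2 averaged 7.67 RPKM over the 6 libraries and 7.08 RPKM over the 4 libraries without extract, so it passed this filter without the extract libraries.

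The study asked how the methanol extract of the leaves (LE) of Abeliophyllum distichum, a Korean shrub, acts on the formation of osteoclasts, the cells that resorb bone. Bone marrow cells of mice aged 6 to 8 weeks (C57BL/6 by the sample labels, whereas the study's methods name ICR males) were grown into macrophage-like precursors, which then received M-CSF at 30 ng/mL in every condition for 3 days. The -R cultures had no further addition, the +R cultures also had RANKL, the cytokine that drives osteoclast formation, at 100 ng/mL, and the R+LE cultures had RANKL at 100 ng/mL and LE at 10 μg/mL. Each condition had 2 libraries, and neither the labels nor the methods say whether the replicates came from separate mice or cultures, so p-values measure the spread between these samples, which may be technical. No culture with LE but without RANKL was part of the comparison.

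The 6 libraries held between 29390202 and 34846388 mapped reads, which were recovered from the size of the steps between low values, and 74.2 to 80.7% of them lay on genes. The ribosomal RNA repeat gene Rn45s took 4.97 to 6.83% of gene reads in -R and 10.9 to 11.1% in +R, while R+LE had 11.2% (replicate 1) and 13.5% (replicate 2). The summed level of 6 macrophage markers was 1395 to 1502 RPKM in -R, 792 to 902 in +R and 704 to 855 in R+LE, and that of 8 osteoclast markers was 43.2 to 44.8, 1866 to 2123 and 329 to 380 RPKM. The labelled macrophage origin and the RANKL treatment were thus visible in the marker genes. In RNA from whole cultures, fewer cells of a type and less RNA per cell cannot be told apart.

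During elongation of a protein chain, eEF1A bound to GTP brings each aminoacyl-tRNA to the ribosome, and the eEF1B complex, built of the products of Eef1b2, Eef1d and Eef1g, exchanges the spent GDP for GTP. eEF2 then moves the ribosome along the mRNA, and eEF2 kinase, a kinase activated by calcium and calmodulin, phosphorylates eEF2 and slows this step. Most cells make eEF1A from Eef1a1, while Eef1a2 is known as the form of neurons and of skeletal and heart muscle.

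Eef1a1 and Eef1a2 are separate genes whose transcripts share much of their sequence, so the question of which gene a read came from precedes any comparison. On the mm10 build the deposited transcript of Eef1a2 (NM_007906, 2036 nt, 8 exons) lies on the minus strand at chr2:181147692-181157015, and that of Eef1a1 (NM_010106, 1779 nt, 8 exons) on the minus strand at chr9:78478454-78481724. The transcripts aligned over 1380 nt with 80.9% identity, and the longest identical run was 23 nt. Of the 2060 stretches of 25 nt in the Ensembl transcript of Eef1a2, 0 occurred in that of Eef1a1. No other annotated gene had at least 95% identity to Eef1a2 over 100 nt or more. Eef1a1 had 13 such genes, 9 of them pseudogenes, and its reads may have been split with these copies, as the treatment of reads with several matches is not given in the sources used here.

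The start regions of the paralogs are shown because they differ in base composition. RefSeq promoter sequences (GRCm38.p6) were found for 5 of the 7 genes, and not for Eef1d and Eef1g. The 250 bases before the annotated start are printed here for both eEF1A genes, 5′ to 3′ on the strand of the gene, with each run of at least 8 pyrimidines (C or T) in capitals. They lie at chr2:181157016-181157265 for Eef1a2 and chr9:78481725-78481974 for Eef1a1, both on the minus strand and outside the transcribed gene.
Eef1a2 upstream: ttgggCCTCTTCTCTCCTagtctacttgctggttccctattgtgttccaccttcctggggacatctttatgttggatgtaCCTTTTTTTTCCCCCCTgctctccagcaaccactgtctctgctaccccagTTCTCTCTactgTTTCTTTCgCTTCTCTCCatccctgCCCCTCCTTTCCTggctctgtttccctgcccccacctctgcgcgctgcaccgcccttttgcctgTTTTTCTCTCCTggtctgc
Eef1a1 upstream: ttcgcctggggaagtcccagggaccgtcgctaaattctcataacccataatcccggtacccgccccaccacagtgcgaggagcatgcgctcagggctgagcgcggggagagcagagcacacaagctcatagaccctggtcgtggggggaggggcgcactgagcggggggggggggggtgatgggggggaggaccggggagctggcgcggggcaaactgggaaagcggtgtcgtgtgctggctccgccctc
Pyrimidines made up 76.8% of the Eef1a2 region, with 7 runs of at least 8 and the longest of 17 bases, and 40.4% of the Eef1a1 region, which had no such run. The share of Eef1a2 lay near the top of all promoters, of which 99.9% had at most this share.

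Transcripts of ribosomal proteins and of several elongation factors are known to begin with a C followed by a run of pyrimidines, the 5′ terminal oligopyrimidine motif. The 30 bases around each annotated start, 15 before it and 15 from it on, are printed for both genes, with a run of at least 5 pyrimidines that begins with a C within 5 bases of the start in capitals (chr9:78481710-78481739 for Eef1a1 and chr2:181157001-181157030 for Eef1a2, minus strand).
Eef1a1 start: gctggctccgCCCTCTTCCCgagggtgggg
Eef1a2 start: tctctcctggtctgcgttctcgctcactgg
The Eef1a1 window held a run of 10 pyrimidines, and the longest such run at the annotated start of Eef1a2 was 3. The short run was not particular to Eef1a2, as it was 2 for Eef1b2, 1 for Eef2 and 3 for Eef2k. The search rests on the annotated start, and the starts used in these cells were not measured. A short run therefore does not show that the motif is absent from a transcript. Runs of at least 5 were found in 18.35% of 32851 promoters and in 28 of the 58 ribosomal protein genes with an entry. Further motifs were searched on both strands. TGACNNNGC, the core of the antioxidant response element, was present in 12.4% of promoters. The AP-1 motif (TGANTCA) was present in 7.81%. The TATA box motif, searched as TATAAA, was present in 13.6%. The promoter windows of Eef1a1, Eef1a2 and Eef2k held no match to any of them. Eef1b2 had an antioxidant response element core on the minus strand 174 bases before the start. Eef2 had such a core 50 bases before the start, and a TATA box motif 15 bases before it. These are matches of letters, and binding was not measured.

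Eef1a1 was by far the most abundant of the 7 transcripts, and the order of levels was the same in -R and R+LE. In -R, mean levels per length fell from Eef1a1 (2557 RPKM) through Eef2 (501), Eef1g (337), Eef1b2 (109), Eef1d (62.3) and Eef1a2 (13.6) to Eef2k (3.21). In +R the last places changed, with Eef2k at 3.88 RPKM and Eef1a2 at 0.560 RPKM. Neighbours in these orders did not overlap between their libraries in any of the conditions. Eef1a1 ranked between 4 and 8 among all genes in every library, whereas Eef1a2 ranked 3832 and 4263 in -R, 11299 and 11333 in the +R libraries, then 5486 and 5171 in R+LE. Together the 7 genes took 0.889 and 0.893% of all gene reads in -R, 1.40 and 1.37% with RANKL alone, then 1.31 and 1.10% in R+LE.

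**Figure D1:**
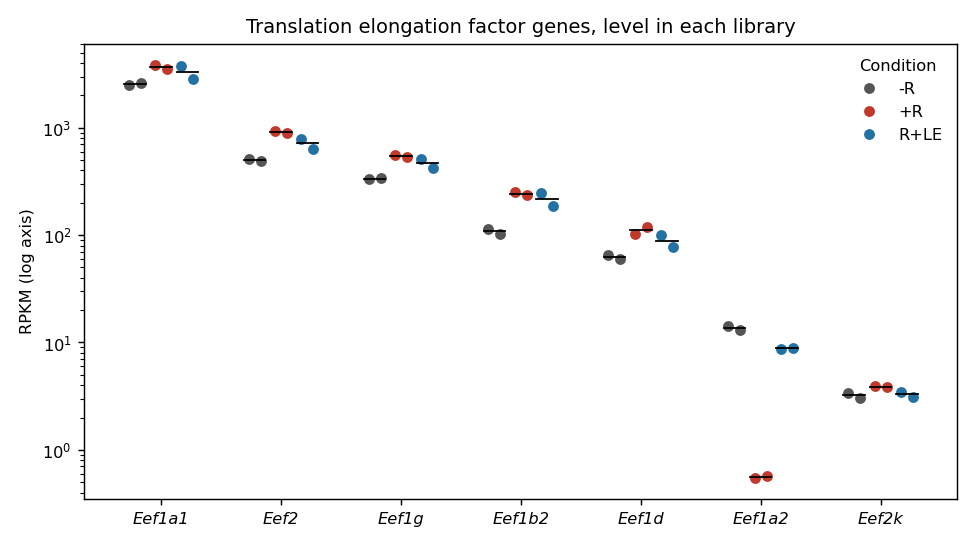
Level of each gene in RPKM on a log axis, with the 2 libraries of each condition as points and their mean as a line. Eef1a2 lies between 13.0 and 14.2 RPKM in -R, at 0.544 and 0.576 in +R and at 8.74 and 8.94 in R+LE, and the abundant factors lie higher in +R than in -R.

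Eef1a2 was lower with RANKL alone than in either other condition. It was at 14.2 and 13.0 RPKM in the -R libraries, at 0.544 and 0.576 RPKM in the +R libraries, then at 8.74 and 8.94 RPKM in the R+LE libraries. Every library of a condition lay apart from those of the others, and replicates differed by much less than the conditions. These levels rested on 852 and 920 reads in -R, 34 and 36 with RANKL alone, then 562 and 554 in R+LE, while 3 reads, the limit that a count of 0 allows, correspond to 0.0423 to 0.0501 RPKM, so the gene was still detected after RANKL. The mean in +R was 24.3-fold below that in -R, and the log2 fold change on the log2(RPKM + 0.5) scale, which understates changes of low genes, was -3.73. This difference was not tested, since the +R values are among those that Eef1a2 was chosen on. The mean in R+LE was 15.8-fold above that in +R (3.14 on the log2 scale), which is the difference the gene was chosen for and was not tested. With both agents Eef1a2 remained at 65.0% of its -R mean, a log2 difference of -0.59 that was likewise left untested.

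Eef1a1 behaved otherwise. It was at 2505 and 2608 RPKM in -R, against 3871 and 3492 in +R, with 3726 and 2825 in R+LE. Both +R libraries and both R+LE libraries were above the -R libraries, and R+LE overlapped +R. The log2 fold change of +R against -R was 0.52 (95% interval 0.02 to 1.03), which did not pass after adjustment (limma adjusted p = 0.0854). This call turned with the spread assumed. At the same fold change the limma adjusted p was 0.0221 without the variance trend, 0.00477 with only these groups fitted and 0.521 with no filter. The fold change was 0.50 and 0.55 without -R replicate 1 or 2, and 0.45 and 0.60 without +R replicate 1 or 2. Those fits leave 1 library in a compared group. R+LE against -R gave 0.34 (95% interval -0.16 to 0.85, limma adjusted p = 0.287). The value was 0.31 and 0.37 without -R replicate 1 or 2, 0.14 without R+LE replicate 1 and 0.54 without R+LE replicate 2. It was 0.75 with quantile normalization (adjusted p = 0.00139). It also passed with voom on recovered reads (adjusted p = 0.0313) and with depth taken as the reads on genes without Rn45s (adjusted p = 0.0357). It did not pass with no variance trend (adjusted p = 0.134), median centring (0.127) or the replicate block (0.210).

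As a share of the summed RPKM of both genes, Eef1a2 was 0.565 and 0.495% in -R, 0.0141 and 0.0165% in the +R libraries, then 0.234 and 0.315% in R+LE. For each RPKM of Eef1a2 there were 176 and 201 RPKM of Eef1a1 in -R, 7116 and 6063 in +R, with 426 and 316 in R+LE. The share did not overlap between conditions, although with 2 libraries a group the smallest p an exact two-sided permutation test can give is 0.333. The mean of Eef1a1 was 1125 RPKM higher in +R than in -R and that of Eef1a2 was 13.0 RPKM lower, so the sum of both, 2520 and 2621 RPKM in -R and 3872 and 3493 in +R, followed Eef1a1.

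**Figure D2:**
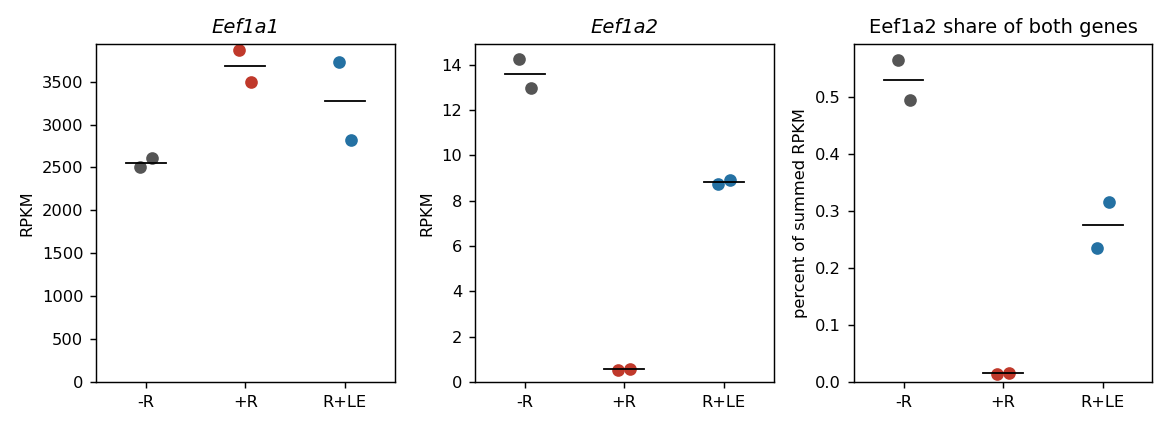
Levels of Eef1a1 and Eef1a2 in RPKM and the share of Eef1a2 in their summed RPKM, in percent, with the 2 libraries of each condition as points, their mean as a line and axes from 0. The share is 0.495 and 0.565% in -R, below 0.02% in +R, with 0.234 and 0.315% in R+LE, while Eef1a1 lies at 2505 RPKM or above in all libraries.

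The subunits of the exchange factor eEF1B rose with RANKL. Eef1b2, which encodes a catalytic subunit (chr1:63176831-63180486, plus strand), was at 114 and 103 RPKM in -R, 252 and 235 with RANKL alone, then 245 and 186 in R+LE. The -R libraries were the lowest, and the R+LE libraries overlapped those of +R. The log2 fold change was 1.16 in +R (SE 0.17, limma adjusted p = 5.31e-05) and 0.97 in R+LE (SE 0.17, adjusted p = 0.000408), both against -R.

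Eef1d, which encodes the other exchange subunit (chr15:75894796-75909344, minus strand), was at 64.9 and 59.6 RPKM in -R, against 102 and 119 in +R, with 101 and 76.8 in R+LE. All +R and R+LE libraries were above those of -R, and 1 R+LE library nearly reached the lower +R library. Against -R the log2 fold change was 0.82 in +R (SE 0.17, limma adjusted p = 0.000846) and 0.50 in R+LE (SE 0.17, adjusted p = 0.0301). The call in R+LE was lost without -R replicate 1 (adjusted p = 0.125), -R replicate 2 (0.212) or R+LE replicate 1 (0.140). Of the 2312 exonic bases in the Ensembl model, 277 overlap Naprt on the same strand. The deposited transcript is shorter (1697 nt), so whether these bases were counted for Eef1d is not known.

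Eef1g, the gene of the scaffold subunit (chr19:8967041-8978180, plus strand), was at 332 and 341 RPKM in -R, 561 and 539 in the +R libraries, then 512 and 422 in R+LE. The conditions did not overlap. The log2 fold change of +R against -R was 0.71 (SE 0.18, limma adjusted p = 0.00411), but the adjusted p was 0.0763 without -R replicate 1 and 0.0610 without -R replicate 2. For R+LE against -R it was 0.46 (SE 0.18) and did not pass (adjusted p = 0.0543), and it passed without R+LE replicate 2 (0.60, adjusted p = 0.00426). Eef1g has 4 near-identical pseudogenes and Eef1b2 and Eef2 have 1 each, so their levels share the uncertainty of Eef1a1.

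Relative to Eef1a1, Eef1b2 was at 4.56 and 3.94% in -R, 6.51 and 6.73% with RANKL alone, then 6.57 and 6.57% in R+LE. The same ratio for Eef1d was 2.59 and 2.29%, 2.65 and 3.40%, and 2.71 and 2.72%, and for Eef1g 13.3 and 13.1%, 14.5 and 15.5%, and 13.7 and 14.9%. For each of the 3 subunits the ratios of the -R libraries were below those of the other conditions, which overlapped each other.

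Eef2 encodes the translocase eEF2 (chr10:81176631-81182509, plus strand), and it rose with RANKL. Its level was 508 and 495 RPKM in -R, against 935 and 890 in +R, with 794 and 641 in R+LE. The 3 conditions did not overlap, with R+LE in between. Against -R, the log2 fold change was 0.86 in +R (SE 0.19, limma adjusted p = 0.00155) and 0.51 in R+LE (SE 0.19, adjusted p = 0.0483). The call in R+LE was close to the threshold and held only without R+LE replicate 2 among the fits that left out a library. Without -R replicate 1 or 2, +R replicate 1 or 2, or R+LE replicate 1 its adjusted p was 0.242, 0.261, 0.0973, 0.0951 and 0.0826.

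Eef2k (chr7:120842831-120907219, plus strand) was low in all libraries. It was at 3.38 and 3.05 RPKM in -R, 3.94 and 3.82 in the +R libraries, then 3.47 and 3.12 in R+LE. The +R libraries were the highest, and R+LE overlapped -R. The log2 fold change of +R against -R was 0.24 (95% interval -0.08 to 0.56, limma adjusted p = 0.203), and that of R+LE against -R was 0.03 (95% interval -0.29 to 0.35, adjusted p = 0.901). For 1000 RPKM of Eef2 there were 6.65 and 6.17 RPKM of Eef2k in -R, 4.22 and 4.30 in +R, with 4.37 and 4.86 in R+LE, so the ratio was lower in both conditions with RANKL. Reads were counted without regard to strand, and an antisense gene shares 101 exonic bases with the Ensembl model of Eef2k.

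In +R against -R, 4 of the 6 genes other than Eef1a2 passed an adjusted p of 0.05, all higher (Eef1b2, Eef1d, Eef1g and Eef2), where 23.9% of all genes tested were called higher and 21.5% lower. That count was 3 of 6 without -R replicate 1 or 2 and 5 of 6 without R+LE replicate 1 or 2. With a change of at least 2-fold as well, which is the cut-off of the study, Eef1b2 alone of the 6 was called, where 6.58% of all genes were called higher and 8.92% lower. Of the same 6 genes, 3 passed in R+LE against -R, all higher (Eef1b2, Eef1d and Eef2), against 15.3% of all genes called higher and 19.0% called lower. That count was 5 of 6 without R+LE replicate 2, and 1 of 6 without R+LE replicate 1, -R replicate 1 or -R replicate 2. The comparisons share libraries and are not independent of each other.

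R+LE against +R is the comparison that Eef1a2 was chosen on, and its values are given without a test. Apart from Eef1a2 (3.14), the log2 differences were -0.18 for Eef1a1, -0.19 for Eef1b2, -0.32 for Eef1d, -0.24 for Eef1g, -0.35 for Eef2 and -0.21 for Eef2k, with a median of -0.05 over all genes tested. In this comparison 5.19% of all genes were called higher and 6.86% lower. The R+LE libraries overlapped those of +R for Eef1a1 and Eef1b2. The direction of all 7 differences was the same under each scaling tried, but 2 of them turned without R+LE replicate 2, Eef1a1 to 0.02 and Eef1b2 to 0.01. Without that library the values of Eef1d, Eef1g, Eef2 and Eef2k were -0.13, -0.10, -0.20 and -0.14, and that of Eef1a2 was 3.12.

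**Figure D3:**
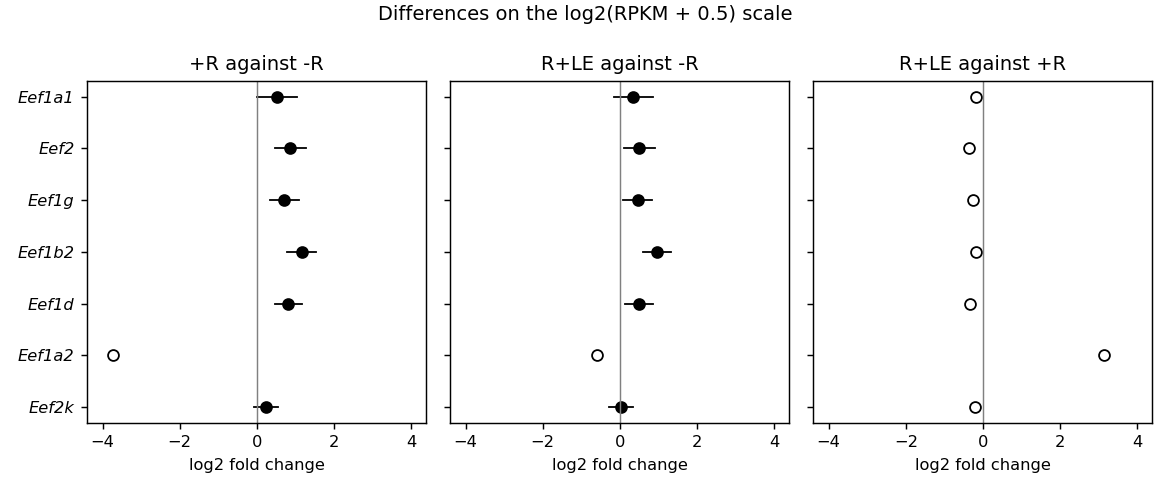
Log2 fold change of each gene on the log2(RPKM + 0.5) scale in the 3 comparisons, with filled points and 95% limma intervals where a test was made and open points where the value is a description. With RANKL alone Eef1a2 is at -3.73 and the other 6 genes lie between 0.24 and 1.16, and with LE added to RANKL Eef1a2 is at 3.14 and the other 6 lie between -0.35 and -0.18.

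R+LE replicate 2 was below replicate 1 for 6 of the 7 genes, the exception being Eef1a2, with ratios of replicate 2 to replicate 1 from 0.758 to 1.02. That count was 5 of 7 in -R and 5 of 7 in +R, with ratios from 0.899 to 1.04 and from 0.902 to 1.16. The median ratio in R+LE was 0.902 over all genes tested and 0.760 over ribosomal protein genes. These medians were 1.04 and 0.924 in -R, and 0.943 and 0.967 in +R. R+LE replicate 2 had the largest share of Rn45s, 13.5% of reads on genes, and the smallest share of reads on genes, 74.2%. The part of these features in the levels of the elongation factors was not tested.

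Other genes of translation were set beside these 7. Of 79 cytosolic ribosomal protein genes, 77 rose in +R against -R, beside 23.9% of all genes tested, and their log2 fold changes ranged from 0.45 to 1.11 around a median of 0.75, where the median over all genes was 0.05. Rpsa rose by 1.11 (SE 0.19, limma adjusted p = 0.000235) and Rpl3 by 1.02 (SE 0.19, adjusted p = 0.000461). Without -R replicate 2 the count was 18, and without -R replicate 1, +R replicate 1 or +R replicate 2 it was 34, 45 and 54. Against -R, 42 of the 79 passed in R+LE, all higher, beside 15.3% of all genes tested, with a median of 0.53, and this count was 79 without R+LE replicate 2, 22 without R+LE replicate 1, 4 without -R replicate 1 and 0 without -R replicate 2. In R+LE against +R all 79 were lower, from -0.43 to -0.04 with a median of -0.22, where the median over all genes was -0.05. Of the 79, 0 passed in limma, beside 5.19% of all genes tested called higher and 6.86% called lower, and 0 had an unadjusted p under 0.05. Voom with limma on recovered reads also called 0, whereas limma after quantile normalization called 2 lower.

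Among 40 initiation factor genes, 18 rose and 0 fell in limma in +R against -R, beside 23.9% and 21.5% of all genes tested, the median log2 value was 0.34, and 0 had an unadjusted p under 0.05 in the lower direction. Pabpc1, the poly(A) binding protein, rose by 1.33 (SE 0.19, limma adjusted p = 3.90e-05), Eif4ebp1, an inhibitor of the cap binding factor, by 1.21 (SE 0.15, adjusted p = 7.14e-06), and Eif4b, a cofactor of the helicase eIF4A, by 1.07 (SE 0.16, adjusted p = 5.76e-05). The count of 18 was 10, 12 and 11 without -R replicate 1, -R replicate 2 and +R replicate 1. With LE added to RANKL, 36 of the 40 were lower and 4 higher than in +R at any p. Their median was -0.17, where the median over all genes was -0.05. Of them 1 passed, beside 5.19% of all genes tested called higher and 6.86% called lower. That gene was Eif4ebp1, which fell by 0.54 (SE 0.15, limma adjusted p = 0.0246) from 70.2 and 63.9 RPKM to 50.5 and 41.7 RPKM. It passed in none of the fits without a -R or +R library or R+LE replicate 2, and 5 genes passed without R+LE replicate 1. Against -R, 12 of them rose in R+LE, beside 15.3% of all genes tested, again with Pabpc1 at 0.85 (SE 0.19, adjusted p = 0.00284) as the largest, and 3, 3 and 7 passed without -R replicate 1, -R replicate 2 and R+LE replicate 1.

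**Figure D4:**
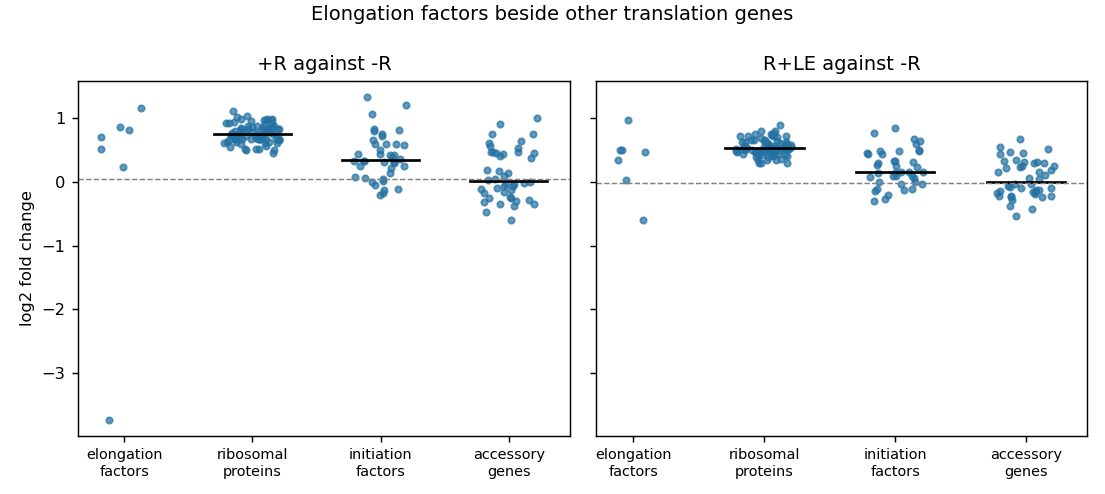
Log2 fold changes against -R in +R and in R+LE for the 7 elongation factor genes and for the ribosomal protein, initiation factor and accessory genes, 1 point a gene, with the median of the last 3 groups as a line and the median of all genes tested as a dashed line. The ribosomal protein genes lie between 0.45 and 1.11 in +R, most elongation factors lie in the same range, and Eef1a2 lies far below at -3.73.

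The accessory genes, which modify, assist or parallel the elongation factors, moved less evenly. Of 44 tested, 15 rose and 3 fell in +R against -R, beside 23.9% and 21.5% of all genes tested, and the median log2 value was 0.02. Without -R replicate 1 or 2 or +R replicate 1 or 2, 10, 9, 11 and 11 passed in all. Of the mitochondrial elongation factors, 4 of 5 rose. Tufm, the mitochondrial counterpart of eEF1A, rose by 0.91 (SE 0.16, limma adjusted p = 0.000259), from 37.5 and 39.8 RPKM to 74.1 and 71.8 RPKM. Its exchange factor Tsfm rose by 0.75 (SE 0.14, adjusted p = 0.000483), and Gfm1, the mitochondrial translocase, rose by 0.75 (SE 0.15, adjusted p = 0.000614). With LE, Tufm fell by 0.66 (SE 0.16, adjusted p = 0.0126) to 53.7 and 39.6 RPKM and Tsfm fell by 0.56 (SE 0.14, adjusted p = 0.0165), both against +R.

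Of 5 tested methyltransferase genes of eEF1A and eEF2, 2 rose and 1 fell in +R against -R. Over all genes tested, 23.9% were called higher and 21.5% lower in that comparison. Mettl13, which methylates eEF1A, rose by 0.65 (SE 0.16, limma adjusted p = 0.00372) and Eef1akmt4 by 0.43 (SE 0.14, adjusted p = 0.0186), while Eef2kmt, which methylates eEF2, fell by 0.47 (SE 0.13, adjusted p = 0.00945), all in +R against -R. Of the 7 genes of diphthamide synthesis, the pathway that builds a modified histidine on eEF2, Dph3 was the 1 that passed (0.46, SE 0.15, adjusted p = 0.0198). Eif5a, whose product carries the amino acid hypusine and promotes elongation, rose by 0.56 (SE 0.19, adjusted p = 0.0217), and Dohh, a hypusine enzyme, by 0.53 (SE 0.18, adjusted p = 0.0232). Dhps, the enzyme before Dohh, fell with LE by 0.48 against +R (SE 0.14, adjusted p = 0.0338).

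Among the termination, rescue and recycling factors 3 of 5 rose in +R against -R, namely Hbs1l (0.47), Abce1 (0.45) and Gspt1 (0.41). Over all genes tested, 23.9% were called higher and 21.5% lower in that comparison. Mars and Vars, the methionyl- and valyl-tRNA synthetases, of which the latter binds the eEF1B complex, rose by 1.0 (SE 0.15, limma adjusted p = 5.77e-05) and 0.47 (SE 0.16, adjusted p = 0.0290). Of 12 genes of kinases, calmodulin and phosphatase that act on eEF2 kinase or eEF2, 1 rose and 2 fell in +R against -R. These counts stand beside the same 23.9% and 21.5% of all genes. The S6 kinase gene Rps6kb1 rose by 0.48 (SE 0.14, adjusted p = 0.0103). The RSK genes Rps6ka3 and Rps6ka1 fell by 0.60 (SE 0.14, adjusted p = 0.00223) and 0.35 (SE 0.14, adjusted p = 0.0486). In R+LE against +R, Tufm, Tsfm and Dhps were the 3 accessory genes that passed, all lower, a share of 3 in 44 beside 6.86% of all genes tested. At an unadjusted p under 0.05, 7 were lower and 2 higher. That count of 3 was 0 without R+LE replicate 2, 1 without -R replicate 1, -R replicate 2 or +R replicate 1, 2 without +R replicate 2, and 5 without R+LE replicate 1. Against -R, 6 of the 44 accessory genes were higher and 2 lower in R+LE, beside 15.3% and 19.0% of all genes tested, and 0, 3 and 4 passed in all without -R replicate 1, -R replicate 2 and R+LE replicate 1.

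The genes around Eef1a2 were mostly silent or moved less. Within 200 kb, 13 other genes of the table have a transcript, and 5 of them were expressed highly enough to be tested. Chrna4 and Srms were at 0 in every library. Helz2, a helicase gene with its start 85.0 kb away, was at 29.3 and 30.0 RPKM in -R, 8.57 and 11.4 with RANKL alone, then 8.67 and 12.7 in R+LE. It fell by 1.54 in +R against -R (limma adjusted p = 4.73e-06), and its log2 difference between R+LE and +R was 0.08 (adjusted p = 0.856). Arfgap1 fell by 0.51 in +R against -R (adjusted p = 0.00602), whereas Ppdpf, Gmeb2 and Rtel1 had values of -0.29, -0.34 and 0.31 that did not pass (adjusted p = 0.116, 0.0653 and 0.115). In R+LE against +R none of the 5 neighbours passed in limma, with log2 differences from -0.14 to 0.13. Among all genes tested, 5.19% were called higher and 6.86% lower in R+LE against +R. For +R against -R these shares were 23.9% and 21.5%.

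**Figure D5:**
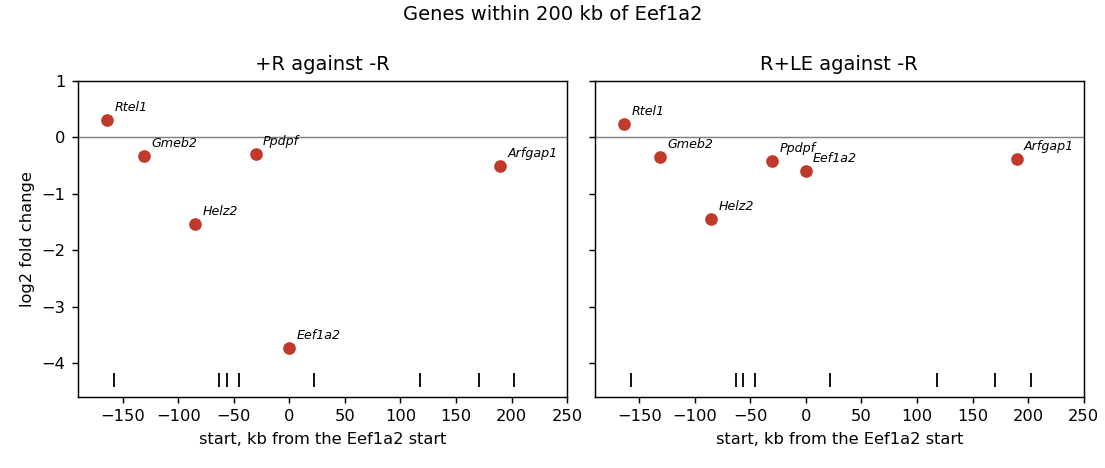
Log2 fold change against -R in +R and in R+LE of the tested genes within 200 kb of Eef1a2, by the distance of their annotated starts in kb, with ticks at the bottom for genes too low to be tested. Eef1a2 is at -3.73 in +R and -0.59 in R+LE, values that were not tested, while Helz2 is at -1.54 and -1.45.

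The 5 genes whose levels followed Eef1a2 most closely over the 6 libraries, by the Euclidean distance between log2 levels centred on each gene, were Ly6a, Gclm, Serpinb9b, Procr and Rnf128, among 11595 genes. Ly6a, a surface antigen of stem cells and lymphocytes, had a distance of 0.934 and a Pearson correlation of 0.980, with 126 and 133 RPKM in -R, against 13.3 and 10.9 in +R, with 65.0 and 55.3 in R+LE. Gclm, the modifier subunit of the enzyme that begins glutathione synthesis, had a distance of 1.04 and a correlation of 0.989, with 105 and 104 RPKM in -R, 14.9 and 15.2 in the +R libraries, then 111 and 82.0 in R+LE. The distances of Serpinb9b, a protease inhibitor gene, Procr, the protein C receptor gene, and Rnf128, a ubiquitin ligase gene, were 1.05, 1.05 and 1.18. With 3 conditions of 2 libraries, these correlations describe a shared pattern of low level in +R and carry no test.

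Since Eef1a2 is known from neurons and muscle, markers of these and of other cells that a marrow culture could hold were read in the same libraries. The summed level of 8 neuron markers was 0.023 to 0.122 RPKM over all libraries, and Syt1, Stmn2 and Nefm were at 0. The sum of 10 striated muscle markers was 4.75 to 5.44 RPKM in -R, 9.49 to 11.2 in +R and 6.39 to 8.37 in R+LE, led by Tnni2 with a mean of 4.26 RPKM, and Myh1, Myh4 and Myl1 were at 0. Markers of stromal cells summed to 14.4 to 16.3 RPKM in -R, 10.4 to 14.5 in +R and 7.49 to 8.55 in R+LE. Those of neutrophils and their precursors summed to 15.2 to 16.9, 0.660 to 0.816 and 0.509 to 2.53 RPKM, low in both conditions with RANKL. B cell markers summed to 1.55 to 1.94, 0.0990 to 0.105 and 0.0480 to 0.124 RPKM, T cell markers to at most 0.275 RPKM, endothelial markers to 2.03 to 2.09, 2.01 to 2.16 and 0.803 to 0.840 RPKM, and 4 of 5 erythroid markers were at 0. The part of RNA from any of these cell types in the levels of Eef1a2 was not tested.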

How the data were processed

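Total RNA of mouse bone marrow-derived macrophages was sequenced in 6 libraries as paired ends of 100 bases on an Illumina HiSeq. The authors counted reads on exons with HOMER, on either strand and with 1 transcript kept for each gene, and deposited them as RPKM, that is, scaled to transcript length and mapped reads, although the column titles say FPKM. The build was mm10. The study's methods name TopHat as the aligner, and the submitters' processing notes name HISAT2, HOMER and DESeq2, with no version given in the sources used here. The authors' own test results were not used. Gene symbols that a spreadsheet had turned into dates (26) were restored from the transcript identifiers.

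Groups and replicate numbers came from the sample titles. The members, the gene lists, the comparisons and the alternatives were chosen with earlier results of these data known. limma 3.58.1 (R 4.3.3, empirical Bayes with a variance trend) was fitted to log2(RPKM + 0.5) of all 6 libraries and the 11595 genes that averaged 0.5 RPKM or more, with Benjamini-Hochberg adjustment over all of them and a threshold of 0.05, without any fold threshold unless stated. Members were not tested in R+LE against +R. Eef1a2 was tested in no comparison, although a test in +R against -R had been planned, since its +R values took part in its choice. Named besides the members were up to 3 genes with the largest rise and fall among those passing in each list and comparison, the 5 genes most like Eef1a2 and the genes within 200 kb, some of which are not reported here. In simulated counts for +R against -R with 11607 genes, 184 of 199 changed genes were recovered (92.5%), with 27 unchanged genes called. These numbers are not divided by size of change. Recovery at the log2 fold changes of the tested members, from 0.24 (Eef2k) to 1.16 (Eef1b2) in +R against -R, was not tested.

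Whole reads were recovered from RPKM and transcript length (at least 99.99% of the values checked lay within 0.25 reads of a whole number) and gave the depth, from 29390202 to 34846388 mapped reads. Limits cover counting error only. Transcripts came from GENCODE M21 and promoters from RefSeq, and near copies were found with BLAST+ 2.17.0. Tables were handled in Python 3.11.15 with numpy 2.4.6, pandas 2.3.3, Biopython 1.88 and matplotlib 3.10.9. The alternatives changed the pseudocount, the filter, the scaling, the variance trend, the libraries in the fit and a replicate block, used voom with limma on recovered reads (TMM scaling), or, chosen after seeing the data, took as depth the reads on genes without Rn45s.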

Additional observations from a re-analysis of the deposited data

How the results depend on the processing

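Of 204 alternative values of the tested changes of the 6 genes other than Eef1a2, 169 kept their direction and side of the threshold, 13 fell below it, 20 passed it and 2 turned, namely Eef2k in R+LE against -R, at -0.033 without -R replicate 2 and -0.036 without R+LE replicate 1. The rise of Eef1b2, Eef1d and Eef2 in +R passed in each alternative run. Eef1a1 in +R against -R passed with no variance trend, with only those groups fitted, with each of 3 other scalings and with voom, at adjusted p-values from 0.00025 to 0.0417, and had 0.521 with no filter. The count of genes in R+LE against -R (3) was 1 with no filter and 5 with quantile normalization, voom or depth as reads on genes without Rn45s, and 1 to 5 with a library left out, and that in +R (4) was 3 to 5.

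Counts of the lists moved more. With no filter they were 0 for accessory genes and 0 for initiation factors in R+LE against +R, 5 and 5 in R+LE against -R, and 30 and 2 for ribosomal proteins in +R and R+LE against -R. Quantile normalization gave 5 and 16 accessory genes in R+LE against +R and -R, 28 initiation factors in +R against -R and 2 in R+LE against +R, and 2 and 66 ribosomal proteins in R+LE against +R and -R. Depth without Rn45s gave, in the same order, 5 and 14, 28 and 3, and 79 ribosomal proteins and 19 initiation factors in R+LE against -R. Voom gave 6 accessory genes and 3 initiation factors in R+LE against +R and 77 ribosomal proteins in R+LE against -R. Fitting only the groups compared gave 1 and 5 accessory genes in R+LE against +R and -R and 0 initiation factors in R+LE against +R. A minimum mean of 1 RPKM gave 2 such factors, and median centring gave 2, with 72 ribosomal proteins in R+LE against -R. Leaving out a library gave, for +R against -R, 9 to 20 accessory genes, 10 to 24 initiation factors and 18 to 79 ribosomal proteins, for LE added to RANKL 0 to 5, 0 to 5 and 0 to 14, and for R+LE against -R 0 to 12, 3 to 15 and 0 to 79 (14 ribosomal proteins without R+LE replicate 1). For these counts the cause was not tested. Depth without Rn45s moved the median of all genes in R+LE against -R from -0.01 to 0.10, with 2893 genes called higher and 1845 lower in place of 1773 and 2201.

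With the replicate block, 5 of the 6 genes passed in +R against -R, Eef1a1 among them (adjusted p = 0.0412), 4 in R+LE against -R, with Eef1g (0.0268), and 2 initiation factors in R+LE against +R. Deviations of libraries with the same number correlated at -0.05 (-R and +R), 0.11 (-R and R+LE) and 0.25 (+R and R+LE). The labels do not say what the number marks, so whether libraries with the same number are paired is not known. From recovered reads instead of RPKM, the share of Eef1a2 was 0.606% in -R and 0.0175% in +R, since reads are not divided by length. With a library left out the share was 0.495 to 0.565% in -R, 0.0141 to 0.0165% in +R and 0.234 to 0.315% in R+LE.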
